A study of Homo sapiens with 5 samples.

Results

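NF-kB is a family of transcription factors that act as pairs of Rel-domain subunits. Here 10 genes of its pathway were followed in leukaemia cells grown in the brain and in the spleen of mice. The set was chosen by name, with earlier results of these data known. It holds the 5 subunit genes (NFKB1, NFKB2, REL, RELA and RELB), the feedback inhibitors NFKBIA and TNFAIP3, the target genes BIRC3 and TRAF1, and the receptor gene CD40. All 10 were found by Ensembl identifier among the 65217 human gene identifiers of the deposited gene table, and all 10 were among the 20419 genes that passed the filter on low counts.

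REH, the line transplanted for every library, is a widely used ETV6-RUNX1 (TEL-AML1) line of human B cell precursor leukaemia. Each library also held some mouse RNA, given below. The cells had been transplanted into NSG mice (NOD.Cg-PrkdcscidIl2rgtm1Wjl/SzJ), 6 to 10 weeks old, a strain without T, B and natural killer cells that keeps its own myeloid cells. Blasts came from the brain, where they were collected from the leptomeninges (3 libraries), and from the spleen (2 libraries), purified on a density gradient, and pooled so that each library held RNA of 5 mice. The experiment was done on 3 occasions, which number the replicates, and the spleen pool of occasion 3 was left out by the submitters after quality control. No other treatment was named for either group. Both groups carry the same line, so differences between patients' leukaemias are outside the design, and a pool hides differences between single mice.

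In resting cells NF-kB subunits are held in the cytoplasm by inhibitory ankyrin-repeat proteins such as the product of NFKBIA. Receptors of the TNF receptor family, CD40 among them, activate kinases that remove these inhibitors (the canonical route) or process the NFKB2 precursor so that it pairs with RELB (the non-canonical route). The factors then switch on their own brakes, including NFKBIA and TNFAIP3, and survival and adaptor genes such as BIRC3 and TRAF1. In B cells CD40 responds to a ligand on helper T cells, and NF-kB activity supports the survival of many B cell cancers.

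Promoter windows of members are shown because the feedback and target genes are known to be switched on through NF-kB sites. The RefSeq promoter table (GRCh38.p14, from 250 bases before to 50 bases after a gene start) held 14 windows for 8 of the 10 genes, all except CD40 and RELB. The 4 windows below are those of BIRC3 (chr11:102317234-102317533, plus strand), NFKB2 (chr10:102394328-102394627, plus strand), TNFAIP3 (chr6:137867009-137867308, plus strand) and NFKBIA (chr14:35404700-35404999, minus strand), written 5′ to 3′ on the gene's strand. Capitals mark matches to the NF-kB consensus on either strand, and neighbouring matches run together where they overlap. The consensus searched was GGGRNWYYCC, where R is A or G, N any base, W A or T, and Y C or T.
BIRC3: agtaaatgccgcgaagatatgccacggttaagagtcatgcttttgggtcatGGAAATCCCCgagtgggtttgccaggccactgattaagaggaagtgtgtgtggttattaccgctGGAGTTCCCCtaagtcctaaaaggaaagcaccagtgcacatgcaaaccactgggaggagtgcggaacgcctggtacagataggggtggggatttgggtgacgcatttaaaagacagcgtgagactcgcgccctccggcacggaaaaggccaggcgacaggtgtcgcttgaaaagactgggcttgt
NFKB2: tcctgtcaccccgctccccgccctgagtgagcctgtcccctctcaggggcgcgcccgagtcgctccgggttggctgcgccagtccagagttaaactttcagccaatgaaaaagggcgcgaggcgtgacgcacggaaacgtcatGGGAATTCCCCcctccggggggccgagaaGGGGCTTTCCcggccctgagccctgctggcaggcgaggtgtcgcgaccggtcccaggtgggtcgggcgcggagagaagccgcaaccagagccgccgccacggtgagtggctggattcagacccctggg
TNFAIP3: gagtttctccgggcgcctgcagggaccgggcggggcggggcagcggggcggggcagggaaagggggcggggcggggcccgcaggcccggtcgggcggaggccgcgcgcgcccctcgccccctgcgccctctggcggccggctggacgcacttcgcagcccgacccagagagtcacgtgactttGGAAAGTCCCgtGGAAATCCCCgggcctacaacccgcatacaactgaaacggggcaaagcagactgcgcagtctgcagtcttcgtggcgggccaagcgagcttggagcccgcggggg
NFKBIA: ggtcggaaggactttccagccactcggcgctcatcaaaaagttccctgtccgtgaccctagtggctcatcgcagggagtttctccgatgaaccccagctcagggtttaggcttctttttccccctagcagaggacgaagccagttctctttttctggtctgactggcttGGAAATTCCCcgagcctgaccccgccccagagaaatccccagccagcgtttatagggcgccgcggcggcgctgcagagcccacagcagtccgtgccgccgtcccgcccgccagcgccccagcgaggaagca

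BIRC3 held matches beginning 199 and 135 bases before the start, TNFAIP3 at 67 and 55 bases, and NFKBIA at 81 bases. The NFKB2 window shown held 3 matches, of which the pair that begins 107 and 106 bases before the start overlaps. Another NFKB2 window, not shown, held 2 matches that begin 176 and 21 bases before its start, and a further NFKB2 window held 0. A match was found in 7 of the 14 member windows and in at least 1 window of 6 of the 8 genes (BIRC3, NFKB1, NFKB2, NFKBIA, REL and TNFAIP3). By comparison 5.91% of all 35116 windows held a match, as did 7.09% of 27305 genes. Several members were put in the set because they are known NF-kB targets, so this share describes the choice of genes. A match is a string of letters and not a measured binding site.

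CD40 and BIRC3 were the members that rose in brain, with log2 fold changes of 1.46 and 1.35, and 0 of the 10 fell. The subunit genes and the feedback inhibitors, which make up most of the RNA of the set, did not pass the threshold. By edgeR's quasi-likelihood test with an adjusted p under 0.05, 2 of 10 members were higher, against 6.01% of all genes tested that were higher, 3.50% that were lower and 9.51% that were called in either direction. Because the set was chosen with earlier results known, its share describes the chosen genes and is no independent test. At an unadjusted p under 0.05 the count was 3 higher and 0 lower, and DESeq2 and limma each called 2 higher and 0 lower. The median log2 fold change of the 10 was 0.26, against 0.0066 over all genes tested, and 8 of the 10 values were above 0. For 4 members (CD40, BIRC3, NFKB2 and TNFAIP3) all brain values exceeded all spleen values, a pattern shown by 23.3% of all genes tested. Levels below are CPM over human genes, scaled by the TMM method, and fold changes are brain over spleen. In pooled bulk RNA a change in the share of cells that carry a transcript and a change in RNA per cell cannot be told apart.

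**Figure D1:**
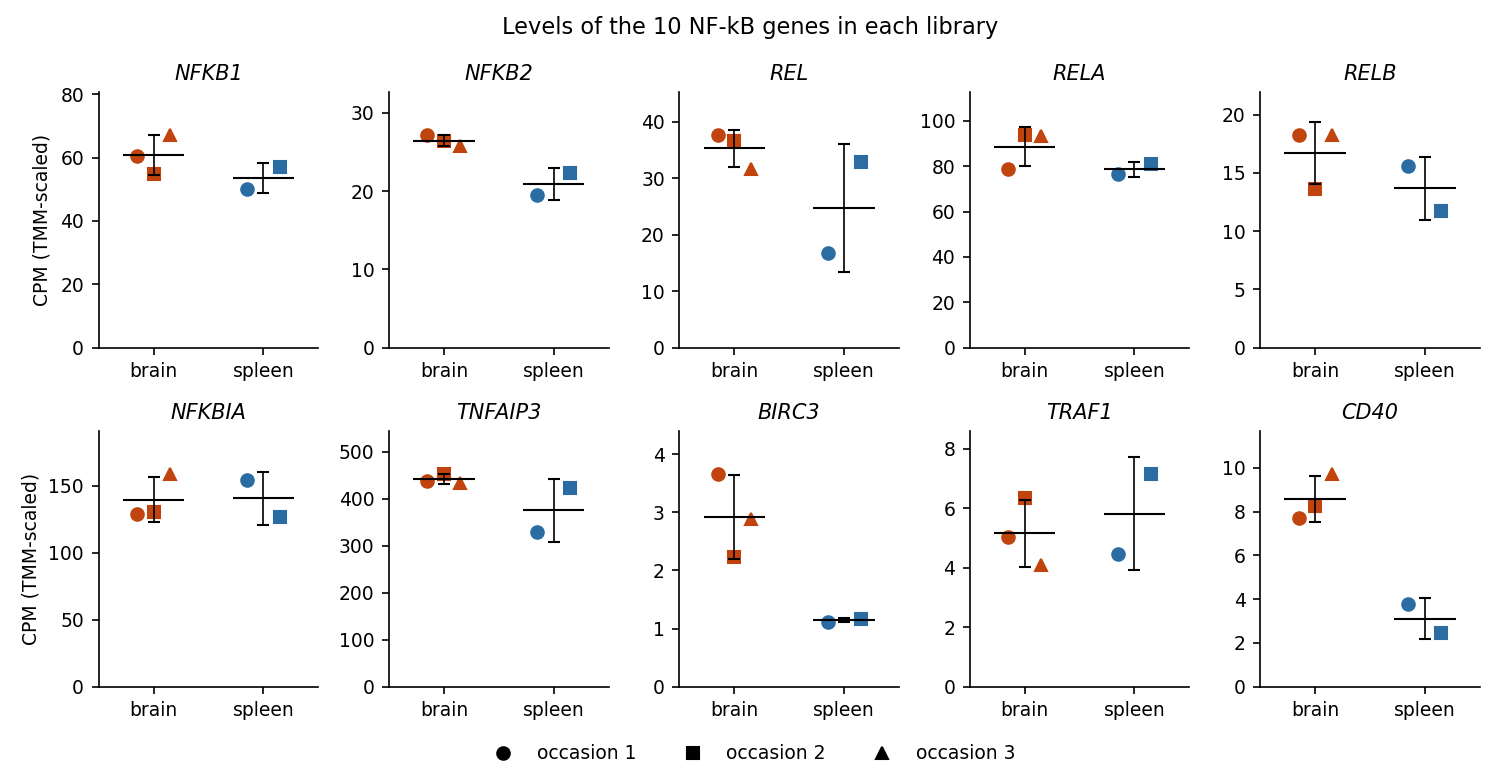
CPM of each of the 10 genes in every library, with brain left of spleen, 1 panel per gene on a linear axis from 0. Points are libraries with the shape giving the occasion, and bars are the mean and SD (3 brain and 2 spleen libraries). CD40 and BIRC3 stand apart between the sites, while NFKBIA and TRAF1 overlap.

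CD40 (ENSG00000101017, chromosome 20, 46118271 to 46129863), the TNF family receptor through which helper T cells activate B cells, had 7.69, 8.26 and 9.73 CPM in brain replicates 1 to 3, against 3.76 and 2.46 CPM in spleen replicates 1 and 2. The underlying estimated counts were 300, 409 and 438 for brain and 165 and 124 for spleen. The groups did not overlap, and the lowest brain library was above the highest spleen library. CD40 averaged 8.56 ± 1.06 CPM in brain and 3.11 ± 0.919 CPM in spleen (SD, n = 3 and 2), a fold change of 2.76 (log2 1.46, SE 0.225, edgeR adjusted p = 0.00637). Its 95% interval on the log2 scale ran from 0.95 to 1.97. Within occasions the ratio of brain to spleen was 2.04 for occasion 1 and 3.36 for occasion 2, and since the groups did not overlap it would lie above 1 with any pairing. Occasions follow the replicate numbers in the sample titles, while the deposited columns number the 2 spleen libraries 2 and 4, so which spleen library belongs to which occasion is uncertain here and for the ratios below. The call held when any 1 of the 5 libraries was left out, with adjusted p up to 0.0266. With the mouse share of each library as a covariate the log2 fold change was 0.99 and the call was lost (adjusted p = 0.239). That share was higher in both spleen libraries than in any brain library, so its part and that of the site cannot be told apart well. On the authors' rlog values, which shrink differences of low genes, limma gave a difference of 0.81 for CD40 and 0.60 for BIRC3, and both passed.

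The estimates for single CD40 transcripts were spread over 7 annotated forms. CD40-202 (ENST00000372285), the Ensembl canonical form, took 59.1%, 57.2% and 47.7% of the gene total in brain and 66.5% and 58.4% in spleen. CD40-207, a form annotated as a target of nonsense-mediated decay, took 18.4%, 16.1% and 22.8% in brain and 11.0% and 23.4% in spleen. Shares of both forms overlapped between the sites. The ligand gene CD40LG had 0 counts in all 5 libraries.

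BIRC3 (ENSG00000023445, chromosome 11, 102317484 to 102339403) encodes an inhibitor of apoptosis that acts as a ubiquitin ligase at TNF family receptors. It had 3.66, 2.22 and 2.89 CPM in the brain libraries, against 1.12 and 1.17 CPM in the spleen libraries. The counts were low, at 143, 110 and 130 in brain and 49 and 59 in spleen. All brain libraries were above both spleen libraries, which lay close together. BIRC3 averaged 2.93 ± 0.721 CPM in brain and 1.14 ± 0.0382 CPM in spleen (SD, n = 3 and 2), a fold change of 2.55 (log2 1.35, SE 0.275, edgeR adjusted p = 0.0199). The ratio of brain to spleen was 3.28 for occasion 1 and 1.90 for occasion 2. The call was lost without brain replicate 1 (log2 fold change 1.16, adjusted p = 0.0808), spleen replicate 1 (1.31, 0.0758) or spleen replicate 2 (1.38, 0.0507), and with the mouse share as a covariate (1.84, 0.121). The leading transcript BIRC3-201 held 86.8%, 86.4% and 83.3% of the gene's counts in brain and 69.7% and 85.7% in spleen. BIRC2, the paralogue next to BIRC3, was at 33.2 ± 2.33 CPM in brain and 32.3 ± 1.70 CPM in spleen and did not pass (log2 fold change 0.039, edgeR adjusted p = 0.869), with values below 0 without brain replicate 1 (-0.020) or spleen replicate 2 (-0.017).

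**Figure D2:**
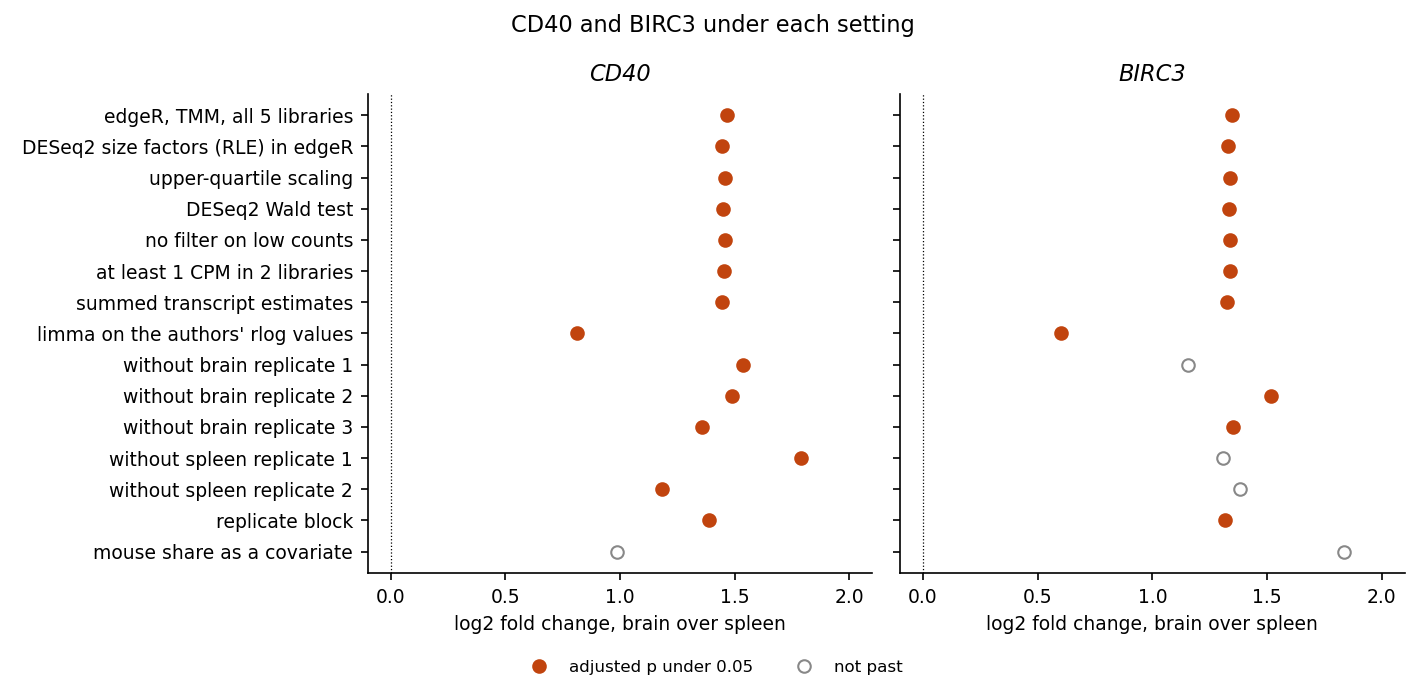
Log2 fold change (brain over spleen) of CD40 and BIRC3 under each analysis setting, 1 row per setting, with filled points where the adjusted p was under 0.05. CD40 lost its call only with the mouse share as a covariate, and BIRC3 there and without brain replicate 1 or either spleen replicate.

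TRAF1 (ENSG00000056558, chromosome 9, 120902393 to 120929173), an adaptor bound by TNF family receptors and itself an NF-kB target, showed no call. Its levels were 5.02, 6.34 and 4.09 CPM in brain and 4.47 and 7.16 CPM in spleen, and the groups overlapped. The log2 fold change was -0.18 (95% interval -0.76 to 0.41, edgeR adjusted p = 0.735), and it was 0.20 without spleen replicate 2 and 0.16 with the mouse share as a covariate. In both sites the replicate 2 libraries were the high ones.

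The feedback inhibitors were the most abundant members. NFKBIA (ENSG00000100906, chromosome 14, 35401079 to 35404749), which encodes the inhibitor that binds the canonical subunits, had 129, 131 and 159 CPM in brain and 154 and 127 CPM in spleen. The groups overlapped, and the log2 fold change of -0.0086 had a 95% interval of -0.31 to 0.29 (edgeR adjusted p = 0.979). Its sign changed without brain replicate 1 (0.044), brain replicate 2 (0.038) or spleen replicate 1 (0.13). TNFAIP3 (ENSG00000118503, chromosome 6, 137867214 to 137883314), which encodes a ubiquitin-editing enzyme that shuts off the pathway, had 438, 453 and 433 CPM in brain and 328 and 423 CPM in spleen. The brain libraries were close together and all lay above spleen, but spleen replicate 2 was near them. TNFAIP3 did not pass (log2 fold change 0.23, 95% interval -0.047 to 0.51, edgeR adjusted p = 0.278), and its log2 fold change ranged from 0.053 without spleen replicate 1 to 0.42 without spleen replicate 2.

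Among the subunit genes, NFKB2 (ENSG00000077150, chromosome 10, 102394110 to 102402524), the precursor gene of the non-canonical route, came nearest to the threshold. It had 27.2, 26.4 and 25.8 CPM in brain and 19.5 and 22.4 CPM in spleen, without overlap. The log2 fold change was 0.34 (95% interval 0.093 to 0.59, unadjusted p = 0.0124 and adjusted p = 0.0866, both by edgeR). It lay between 0.24 and 0.44 when any 1 library was left out. RELB (ENSG00000104856, chromosome 19, 45001461 to 45038192), the partner of the processed NFKB2 product, had 18.2, 13.6 and 18.3 CPM in brain and 15.6 and 11.8 CPM in spleen. The groups overlapped and the log2 fold change was 0.29 (95% interval -0.11 to 0.69, edgeR adjusted p = 0.347). With transcript estimates summed per gene in place of the gene table it was 1.07 and passed (adjusted p = 0.0417). That sum ran over transcripts with a GENCODE 44 entry and held only 78.8%, 71.3% and 42.8% of the RELB gene total in brain and 28.8% and 46.5% in spleen.

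The canonical subunit genes did not pass either. RELA (ENSG00000173039, chromosome 11, 65653599 to 65663090), the main transactivating subunit, had 78.7, 94.0 and 93.5 CPM in brain and 76.4 and 81.1 CPM in spleen, and brain replicate 1 lay between the spleen values. Its log2 fold change was 0.17 (95% interval -0.076 to 0.42, edgeR adjusted p = 0.372), and -0.0019 with the mouse share as a covariate. NFKB1 (ENSG00000109320, chromosome 4, 102501330 to 102617302), which encodes the precursor of the usual partner of RELA, had 60.6, 54.8 and 67.2 CPM in brain and 50.2 and 56.9 CPM in spleen. The groups overlapped, and the log2 fold change was 0.18 (95% interval -0.079 to 0.45, edgeR adjusted p = 0.366).

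REL (ENSG00000162924, chromosome 2, 60881491 to 60931612), the subunit best known from activated lymphocytes, was the member that depended most on a single spleen library. It had 37.7, 36.6 and 31.6 CPM in brain and 16.8 and 32.8 CPM in spleen. Spleen replicate 1 was low and spleen replicate 2 lay within the brain range. The log2 fold change was 0.51 (95% interval -0.029 to 1.04, edgeR adjusted p = 0.218). Without spleen replicate 2 it was 1.07 and passed (adjusted p = 0.00457), and without spleen replicate 1 it was 0.097 (adjusted p = 0.746). It also passed with no filter on low counts (log2 fold change 0.50, adjusted p = 0.0033). By the titles, the ratio of brain to spleen was 2.25 for occasion 1 and 1.12 for occasion 2, and these REL ratios depend on the pairing. A non-coding gene, ENSG00000267520, overlaps REL on the same strand and had 1304 to 1941 counts per library, so the division of reads between them is uncertain. TNFAIP3, RELA and BIRC3 each overlap a gene on the opposite strand (WAKMAR2, RELA-DT and ENSG00000288528), and the strand setting of the counting is not given in the sources used here. WAKMAR2 had 1185 to 1696 counts per library, while RELA-DT and ENSG00000288528 were not among the deposited gene identifiers.

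**Figure D3:**
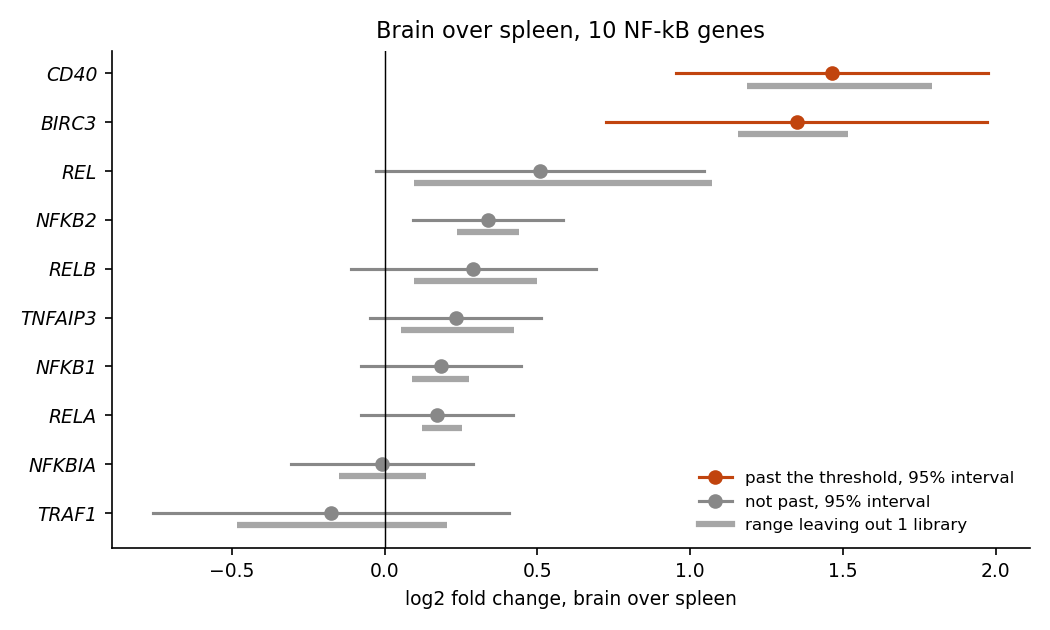
Log2 fold change (brain over spleen) of the 10 genes, with the 95% interval of the edgeR fit as a thin line and the range of values when each library is left out in turn as a grey bar. The intervals of CD40, BIRC3 and NFKB2 lie wholly above 0, and CD40 and BIRC3 passed the adjusted threshold, while the grey bar of REL runs from 0.097 to 1.07.

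Levels can be compared between genes on the length-scaled TPM values of the deposited transcript tables, summed over the annotated transcripts of a gene. In brain the order was TNFAIP3 (147 ± 9.07 TPM), NFKBIA (133 ± 17.8), RELA (48.5 ± 8.14), NFKB1 (21.0 ± 2.53), NFKB2 (15.2 ± 0.783), CD40 (8.73 ± 1.57), RELB (6.81 ± 1.45), REL (4.94 ± 0.191), TRAF1 (1.21 ± 0.277) and BIRC3 (0.982 ± 0.188; SD, n = 3). TNFAIP3 and NFKBIA, CD40 and RELB, and TRAF1 and BIRC3 overlapped between libraries, and the other neighbours did not. In spleen CD40, at 2.81 ± 0.622 TPM (SD, n = 2), stood at rank 8 below RELB (4.25 ± 0.833) and REL (3.28 ± 1.72), against rank 6 in brain, although its spleen values overlapped those of REL. NFKBIA (131 ± 4.15 TPM) and TNFAIP3 (125 ± 38.0 TPM) overlapped in spleen as well. BIRC3 was at 0.540 ± 0.0914 TPM in spleen, so its relative difference between the sites was smaller by TPM than by CPM. The RELB sums are incomplete, as given above, so RELB may stand too low in both orders.

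RELA made up the largest part of the summed TPM of the 5 subunit genes in every library. Its share was 45.0%, 54.8% and 50.3% in brain and 51.4% and 52.5% in spleen. NFKB1 took 22.3%, 18.8% and 24.4% in brain and 23.5% and 22.8% in spleen. REL took 5.80%, 4.77% and 4.88% in brain and 3.03% and 5.07% in spleen. For each of these 3 genes the shares overlapped between brain and spleen. The RELB part of the sum is incomplete by amounts that differ between libraries, so the shares of the other genes are shifted unequally. RELA itself held 88.8% of its gene total in spleen replicate 1 and 99.3% to 100% in the other libraries. The overlap therefore holds for these incomplete sums only. NFKB2 lay between 14.6% and 17.4% over all 5 libraries, and the incomplete RELB sum between 4.13% and 9.47%.

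**Figure D4:**
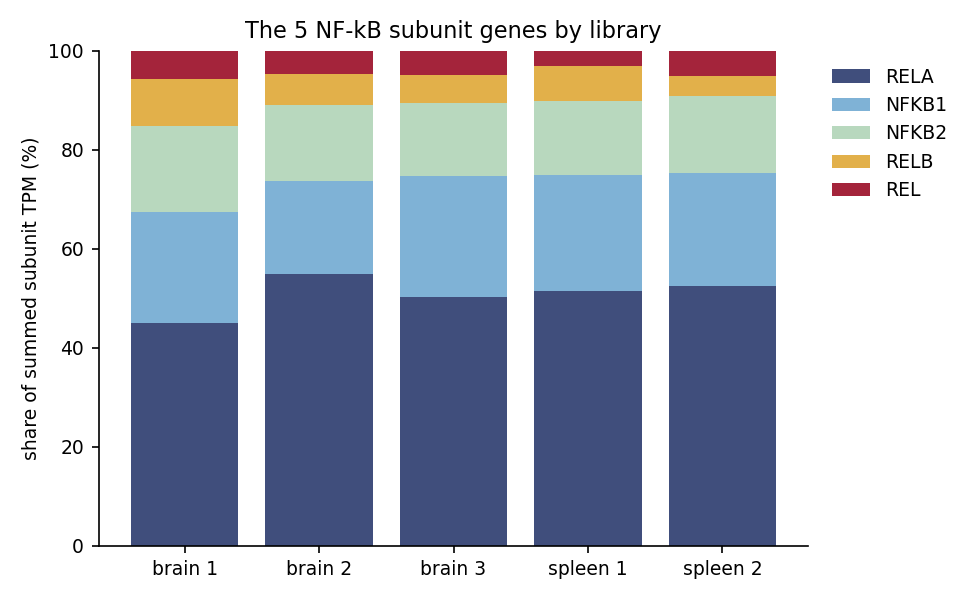
Share of each NF-kB subunit gene in the summed TPM of the 5 subunit genes, 1 bar per library, brain left of spleen, each bar adding to 100%. RELA is the largest segment in all 5 libraries, at 45.0% to 54.8%. RELB is incomplete by amounts that differ between libraries, which shifts every share.

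The 5 other lists of the pathway were described by counts from the same fit, which called 14 of their genes higher and 2 lower. These lists too were chosen with earlier results of these data known. Over all genes tested 6.01% were higher and 3.50% lower. With the mouse share as a covariate 2 of the 14, STAT5A and CD69, kept their calls. Of 13 tested inhibitor and feedback genes 1 was higher and 0 lower in brain (7.69% called, against 9.51% of all genes tested, median log2 fold change 0.064). It was TNIP1, which encodes a binding partner of the TNFAIP3 protein, at 77.8 ± 9.36 CPM in brain and 49.5 ± 2.56 CPM in spleen (SD, n = 3 and 2), which gave 0.65 as log2 fold change (SE 0.119, adjusted p = 0.0129 by edgeR). TNIP1 kept its call without any 1 library (adjusted p up to 0.0441). TRAF3, the adaptor that holds the non-canonical kinase in check, stood at 44.1 ± 3.41 CPM in brain and 43.4 ± 1.32 CPM in spleen (log2 fold change 0.022), and its sign was negative without brain replicate 3 (-0.048) or spleen replicate 1 (-0.017).

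Of 24 kinases and upstream adaptors 1 was higher and 1 lower (8.33% called, against 9.51% of all genes tested, median 0.011). IRAK1, a kinase downstream of Toll-like receptors, was at 193 ± 8.53 CPM in brain and 280 ± 10.5 CPM in spleen (log2 fold change -0.54, SE 0.0955, edgeR adjusted p = 0.0116), and no longer passed without brain replicate 1 (adjusted p = 0.0632) or brain replicate 2 (0.0555). TRAF6, a ubiquitin ligase of the same route, was higher by a log2 value of 0.43 (adjusted p = 0.0456 by edgeR), and no longer passed once any library was left out (up to 0.176), with the replicate number as a block (0.0624), with RLE size factors (0.0532), upper-quartile scaling (0.05001) or summed transcript estimates (0.0614), or by limma on the rlog values (0.0594). IKBKG, the regulatory subunit of the kinase complex, which has a near-identical pseudogene copy, was at 33.7 ± 3.16 CPM in brain and 45.6 ± 5.11 CPM in spleen, without overlap, and just missed the threshold (log2 fold change -0.44, edgeR adjusted p = 0.0520). IKBKG passed as lower with RLE size factors (0.0461), upper-quartile scaling (0.0498), no filter (0.0077), the filter of 1 CPM in 2 libraries (0.0421), the block (0.0382) and without spleen replicate 1 (0.0492), and by DESeq2 (0.0107) and limma on the rlog values (0.0491). MAP3K14, the kinase that starts the non-canonical route, was at 24.3 ± 1.82 CPM in brain and 26.3 ± 0.966 CPM in spleen and did not pass (log2 fold change -0.12, edgeR adjusted p = 0.566).

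Of 17 tested receptors that signal to NF-kB 5 were higher and 1 lower (median 0.31), or 35.3% called. Over all genes tested 9.51% were called. CD27, a TNF family receptor of lymphocytes, had 3.36, 5.27 and 3.53 CPM in brain and 0.729 and 1.27 CPM in spleen (log2 fold change 2.01, SE 0.325, edgeR adjusted p = 0.00822), and it kept its call without any 1 library (adjusted p up to 0.0317). TNFRSF1A, the main TNF receptor, averaged 111 ± 12.7 CPM in brain and 72.0 ± 2.18 CPM in spleen (log2 fold change 0.63, edgeR adjusted p = 0.0142), and lost its call without brain replicate 2 (0.0523). The lower gene was TLR10, an orphan Toll-like receptor, at 4.46 ± 0.929 CPM in brain and 10.7 ± 4.89 CPM in spleen (log2 fold change -1.27, edgeR adjusted p = 0.0264). Its log2 fold change was -0.71 without spleen replicate 2 (adjusted p = 0.139), and the call was also lost without each of the brain replicates (up to 0.0933) and with the block (0.0668). TNFRSF13C, the BAFF receptor, was at 53.1 ± 5.76 CPM in brain and 36.6 ± 4.26 CPM in spleen (log2 fold change 0.54, adjusted p = 0.033 by edgeR), and no longer passed without brain replicate 2, brain replicate 3 or spleen replicate 1 (up to 0.152). TLR4 and TNFRSF8 had log2 fold changes of 0.76 and 2.42, and both lost their calls without any 1 library (adjusted p up to 0.170 and 0.205), with the block (0.0666 and 0.0842) and with summed transcript estimates (0.0518 and 0.0714), and TNFRSF8 also by limma on the rlog values (0.0535). TNFRSF8 rested on 9, 12 and 11 counts in brain and 2 and 2 in spleen. It passed the filter on low counts only through its brain libraries, so its place in the called share is no independent result. Without 1 library between 1 and 3 of the 5 higher receptors kept their calls.

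Among 9 tested ligands 0 were higher and 0 lower by edgeR's adjusted p (median 0.23), against 9.51% of all genes tested that were called. At an unadjusted p under 0.05 there was 1 in each direction, and DESeq2 and limma also called 0. By mean CPM over the 5 libraries the most abundant was LTB. IL1B was level with it in brain, at 92.8 ± 6.20 CPM in brain and 74.3 ± 8.02 CPM in spleen (log2 fold change 0.32, edgeR adjusted p = 0.103). LTB, a subunit of the lymphotoxin that drives the non-canonical route, was at 92.1 ± 5.31 CPM in brain and 111 ± 26.4 CPM in spleen (log2 fold change -0.26, edgeR adjusted p = 0.285), and passed downward without spleen replicate 2 (-0.49, adjusted p = 0.0382).

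Of 23 tested genes from a list of further NF-kB targets 7 were higher and 0 lower (median 0.42), or 30.4%. Over all genes tested 9.51% were called in either direction. STAT5A, a signal transducer of cytokine receptors, was at 25.8 ± 0.627 CPM in brain and 11.0 ± 1.62 CPM in spleen (log2 fold change 1.22, SE 0.126, edgeR adjusted p = 0.000954). PLEK, a protein kinase C substrate of blood cells, was at 35.8 ± 2.12 CPM in brain and 15.2 ± 3.43 CPM in spleen (log2 fold change 1.24, SE 0.148, edgeR adjusted p = 0.0019). CD69, an early activation antigen, was at 12.2 ± 3.65 CPM in brain and 2.64 ± 0.00323 CPM in spleen (log2 fold change 2.21, SE 0.273, edgeR adjusted p = 0.0022). These 3 kept their calls without any 1 library (adjusted p up to 0.0119). The chemokine gene CCL17 had 36, 98 and 163 counts in brain and 15 and 5 in spleen (log2 fold change 3.33). Its log2 fold change was 4.41 without spleen replicate 1, and it no longer passed without brain replicate 2 (3.39, adjusted p = 0.053) or spleen replicate 2 (2.66, 0.0601). BCL2A1, CXCL8 and IL15 had log2 fold changes of 2.78, 1.22 and 0.97. BCL2A1 passed the filter on low counts only through its brain libraries, so its place in the called share is no independent result. BCL2A1 had 13, 13 and 15 counts in brain and 2 and 2 in spleen, and its call was lost without each library except brain replicate 3 (up to 0.117) and with the block (0.0504). CXCL8 and IL15 lost theirs without any 1 library (up to 0.138 and 0.127), and CXCL8 also with the block (0.0703) and by DESeq2 (0.0538). ICAM1, an adhesion molecule widely used as an NF-kB readout, had 6.46, 7.52 and 7.18 CPM in brain and 2.51 and 6.27 CPM in spleen (log2 fold change 0.68, edgeR adjusted p = 0.231). Like REL, ICAM1 was low in spleen replicate 1, and it passed without spleen replicate 2 (1.49, adjusted p = 0.00847) and with no filter on low counts (0.67, 0.0283). Without 1 library between 3 and 5 of the 7 kept their calls.

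**Figure D5:**
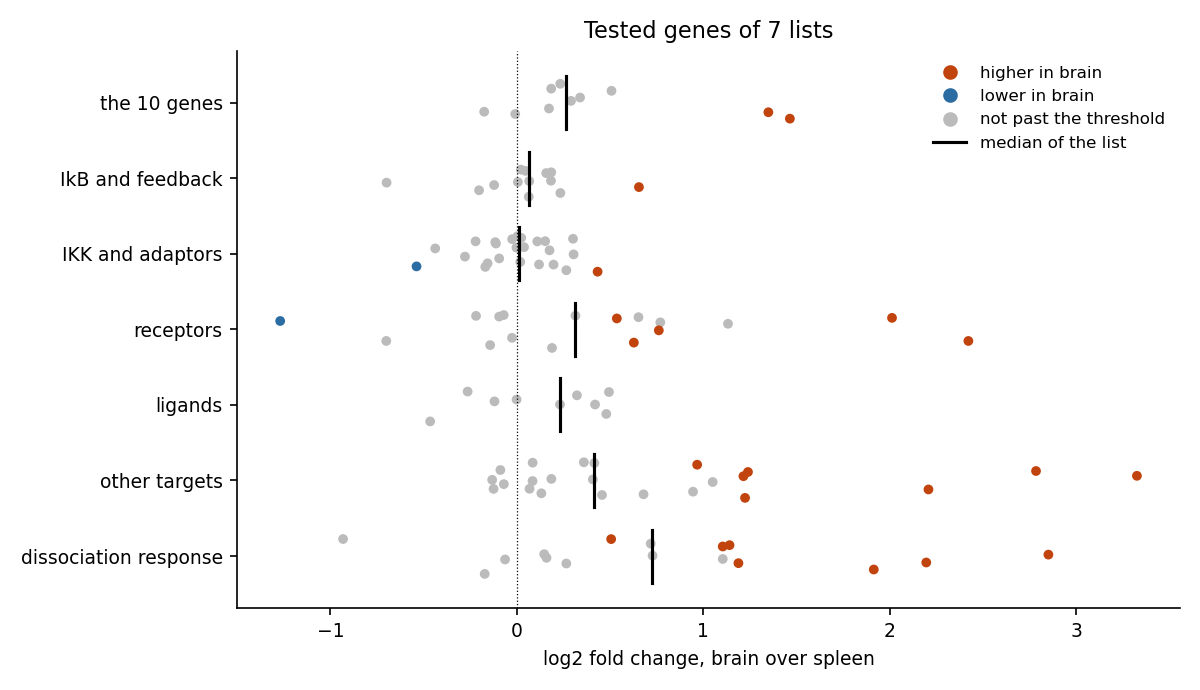
Log2 fold change (brain over spleen) of every tested gene in 7 lists, 1 row per list, with colour giving the call and a black line the list's median. The 10 genes have 2 calls, the receptor and further target lists 6 and 7, and the ligands 0. Over all genes tested 9.51% were called.

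Of 16 genes of the response to tissue dissociation and stress 7 were higher in brain and 0 lower (median 0.72), or 43.8% called. Over all genes tested the called share was 9.51%. FOSB, DUSP1 and IER2 had log2 fold changes of -0.93, -0.17 and -0.063 that did not pass. The summed level of the list was 1034 to 1319 CPM in brain and 718 to 824 CPM in spleen. JUN was at 16.7 ± 4.33 CPM in brain and 4.43 ± 0.886 CPM in spleen (log2 fold change 1.91, SE 0.235, edgeR adjusted p = 0.00214). BTG2, HSPA1A and HSPA1B had log2 fold changes of 1.10, 2.85 and 2.20, DNAJB1 one of 1.14, and JUND and EGR1 0.51 and 1.19. HSPA1A and HSPA1B are near-identical copies, so the division of reads between them is uncertain. With the mouse share as a covariate 2 of the 7, HSPA1A and HSPA1B, kept their calls, and JUN (adjusted p = 0.0978), BTG2 (0.0569) and DNAJB1 (0.375) did not. JUND lost its call without each library except brain replicate 2 (adjusted p up to 0.0934) and EGR1 without any 1 library (up to 0.127). The part of this response in the levels of CD40 and BIRC3 was not tested.

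Depth and cell identity were checked over all libraries. Totals on human genes ranged from 38387991 to 48764202 estimated counts. Mouse transcripts took 5.70%, 2.58% and 2.64% of all estimated counts in brain and 6.33% and 8.87% in spleen, and the difference did not pass an exact two-sided permutation test (p = 0.2, where 3 against 2 libraries cannot give less than 0.1). By TPM the mouse share was 10.4%, 4.36% and 3.10% in brain and 7.98% and 10.5% in spleen, so the groups overlapped (exact permutation p = 0.3). The covariate used the shares of counts, by which both spleen libraries lay above every brain library. Site and mouse share therefore cannot be told apart well in 5 libraries. With the covariate 114 genes were higher and 11 lower over all genes tested, against 1228 and 714 without it. The B precursor markers summed to 6971 to 7046 CPM in brain and 7846 to 8373 CPM in spleen. Of the 11 tested, 0 were higher and 1 lower (CD79A, log2 fold change -0.61), and VPREB1 was listed at 0 in all libraries. Markers of human T and natural killer cells summed to 17.2 to 19.3 CPM in brain and 17.9 to 21.1 CPM in spleen, with CD3D at 0. The larger part of this sum was CD247, at 12.4 to 16.0 CPM over all libraries. Markers of human myeloid cells, which also express CD40, summed to 29.2 to 41.2 CPM in brain and 18.9 to 23.2 CPM in spleen. Most of this was MPO, and of the 7 tested 1 was higher (CD68, at 1.13 ± 0.546 CPM in brain and 0.284 ± 0.0472 CPM in spleen). CD14 and C1QA reached at most 1.91 and 1.04 CPM, both in brain replicate 3. REH was the only human line transplanted, and the source of the reads on these markers was not tested. Their part in the CD40 result was not tested either. The proliferation marker MKI67 was at 355 CPM in brain and 447 CPM in spleen on average and did not pass (log2 fold change -0.33, edgeR adjusted p = 0.161).

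Among 10286 genes of mean log2 CPM at least 3, the 3 whose profile over the 5 libraries was most like that of CD40 were DAB2, an endocytic adaptor, the non-coding ENSG00000253983, and BCHE, butyrylcholinesterase. Their root mean square differences from CD40 on a centred log2(CPM + 0.5) scale were 0.0755, 0.0821 and 0.0897. CD40 was not itself held to that floor, and tested genes below it were not compared, so closer profiles may exist among them. DAB2 had 13.5, 15.4 and 16.3 CPM in brain and 7.54 and 4.44 CPM in spleen. Spleen replicate 2 was its lowest library and brain replicate 3 its highest, as for CD40. Because DAB2 was picked for its likeness to CD40, this shared order describes the choice and is no separate result.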

How the data were processed

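Per the submitters' processing notes, reads were handled with bcl2fastq 1.8.4, cutadapt 1.5, kallisto 0.42.4 and DESeq2 (no version), with builds GRCh38 and GRCm38. Libraries were made with a stranded mRNA kit, per the labels' protocols, and the order of steps is not given in the sources used here. Values of the deposited gene table are estimated counts, all whole numbers, the deposited transcript tables hold kallisto estimated counts and TPM over human and mouse transcripts together, and the authors' second gene table holds log2-scale (rlog) values, used as an alternative. Each gene table has 1 column that belongs to no sample here and was not used. Gene-table totals minus human transcript sums were -18227.5 to -13839.8 counts.

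Identifiers were matched to GENCODE 44 (86.4% matched, with 99.8% of counts). Counts were tested with edgeR 4.0.16 in R 4.3.3 (filterByExpr, TMM, quasi-likelihood F test, origin site as the only term), with Benjamini-Hochberg adjustment over 20419 genes and a threshold of 0.05. Intervals use the moderated degrees of freedom. DESeq2 1.42.0 and limma 3.58.1 served as alternatives. P-values measure the spread between pools made on separate occasions. Replicate numbers mark occasions, per the labels' protocols, and so pair brain and spleen libraries by their titles. The deposited columns number the spleen libraries 2 and 4 in place of 1 and 2, so the pairing is uncertain. The deviations of same-numbered brain and spleen libraries from their site means over occasions 1 and 2 correlated at 0.17 across 12970 genes, which are not independent replicates.

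The members and lists were chosen with earlier results of these data known, so no p is adjusted over a list alone. Named were all members, up to 3 called genes of each list with the smallest p, or else the most abundant, further called genes by fold change, and MAP3K14, TRAF3, BIRC2, LTB, TNFRSF13C, ICAM1, JUN and MKI67. Some values of further genes (marker genes, IKBKG, IL1B, FOSB, DUSP1, IER2, CD40LG and counts of low genes) were added after they were seen. Mouse transcripts were used only as a total, because no table naming mouse genes was used here.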

Additional observations from a re-analysis of the deposited data

How the results depend on the processing

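Values were recomputed under 14 alternatives, except that TNFRSF8 and BCL2A1 had no adjusted p by DESeq2, and these and CXCL8 no value under the filter of 1 CPM in 2 libraries. With the replicate number as a block, 1233 genes were higher and 810 lower, and CD40 (log2 fold change 1.39, adjusted p = 0.0113) and BIRC3 (1.32, 0.0314) kept their calls. Beyond the changes given in the report the block changed no call of a named gene, and its pairing rests on the sample titles. TRAF3 was -0.043 with it, -0.051 with summed transcript estimates and -0.0032 with the mouse share as a covariate. Genes lower in brain numbered 1289 by the DESeq2 Wald test and 1337 with no filter on low counts, against 714. With the mouse share as a covariate 114 genes were higher and 11 lower, 0 of the 10 members were higher, 2 genes of the other 5 lists were higher and 0 lower, 2 dissociation genes were higher against 7, and log2 fold changes were 0.99 for CD40, 1.84 for BIRC3, 0.16 for TRAF1 and -0.0019 for RELA. REL passed with no filter (0.50) and RELB with summed transcript estimates (1.07).

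Leaving out 1 library gave 515 to 871 higher and 146 to 828 lower genes, 1 to 2 higher members, and 5 to 9 higher and 0 to 3 lower genes of the other lists, against 14 and 2. The log2 fold change then ranged from 1.18 to 1.79 for CD40, 1.16 to 1.52 for BIRC3, 0.097 to 1.07 for REL, -0.15 to 0.13 for NFKBIA, -0.48 to 0.20 for TRAF1, -0.048 to 0.062 for TRAF3 and -0.020 to 0.085 for BIRC2. Where an arm had 1 library, that library was assumed to vary like the others. By TPM in place of counts, CD40-202 took 43.3% of CD40 in brain and 53.5% in spleen (54.7% and 62.4% by counts), and BIRC3-201 63.5% and 42.3% of BIRC3 (85.5% and 77.7%). The cause of these changes was not tested. BIRC3, with 49 and 59 counts in spleen, is the called member most limited by depth.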
